A study of Mus musculus with 6 samples.

Results

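Clca3a1, Atp12a and Slc26a4 are genes of chloride, proton and anion transport, selected by symbol from a table of 632 genes, in which all 3 were found. In RNA of sorted prostate epithelium of mice, Clca3a1 rose 3.18-fold in E-cadherin conditional knockout libraries, at a low level throughout. The means of Atp12a and Slc26a4 were 23.2% and 34.2% lower in knockout libraries, and neither difference passed the test across the table. For each of the 3 genes the knockout and control libraries did not overlap, which held for 82.6% of the genes in the table. Of all 632 genes 65.3% were called as higher and 7.28% as lower in knockout.

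The RNA was that of prostate epithelium of 3-month-old C57BL/6 mice, flow-sorted after enzymatic digestion of the tissue. There were 3 libraries of E-cadherin conditional knockout mice, which lack this adhesion receptor in the targeted cells by design, and 3 libraries of their control littermates. Both groups shared strain, age, housing and cell isolation, and the labels name no agent for either. The labels used here name no Cre driver, no sorting marker and no further genotype of the control littermates. They also do not tie libraries to separate animals, so a p-value reflects only how far these libraries spread, part of which may be technical.

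The prostate epithelium secretes a fluid whose ions and pH are set by channels, exchangers and pumps in its apical and basolateral membranes. CLCA proteins, of which Clca3a1 encodes one, are secreted or membrane-associated proteins that modulate calcium-activated chloride conductance and carry a metalloprotease domain. Atp12a encodes the catalytic subunit of the nongastric proton-potassium ATPase, which exports protons in exchange for potassium and is known from the apical membrane of rodent prostate. Slc26a4 encodes pendrin, which exchanges chloride for iodide or bicarbonate and is best known from the thyroid, the inner ear and the intercalated cells of the kidney.

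The table does not hold the whole transcriptome. Its values were taken as FPKM (fragment counts divided by transcript length and by library size). The name under which it was deposited calls its 632 entries differential genes, but the sources used here state no rule or threshold. If these genes were selected by the difference between these groups, calls and separated groups would be common among them by that selection. Since 72.6% of them were called as different between the groups in these same libraries, a p-value within the list is no independent evidence of a difference. The listed genes summed to 31468 to 36565 FPKM per library, and the sequencing depth is unknown. The targeted gene was not in the table, and gives no check of the genotype labels. Of 7 luminal epithelial markers 0 were in the table, and of 7 basal markers 5 were. The knockout titles all bear L7 and the control titles all bear L2, and what these letters stand for is not stated, so their effect and that of genotype cannot be told apart.

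The position and sequence of the genes bear on how their reads were assigned. Clca3a1 (ENSMUSG00000056025) lies on the minus strand of chromosome 3 from 144729677 to 144760977 (GRCm38), and its paralog Clca3a2 (ENSMUSG00000028262) is near it on the same strand, from 144796559 to 144819494. Their coding sequences in GENCODE M21 have the same length, 2706 bases, and were identical at 97.1% of positions. The longest identical stretch was 242 bases, at coding positions 902 to 1143 in both genes, counted from 1 at the start codon. It spans 2 exons in each gene, within chr3:144751979-144754790 in Clca3a1 and chr3:144810691-144813512 in Clca3a2, minus strand. It is shown because a read that falls inside it could have come from either gene.
Clca3a1 and Clca3a2, identical stretch: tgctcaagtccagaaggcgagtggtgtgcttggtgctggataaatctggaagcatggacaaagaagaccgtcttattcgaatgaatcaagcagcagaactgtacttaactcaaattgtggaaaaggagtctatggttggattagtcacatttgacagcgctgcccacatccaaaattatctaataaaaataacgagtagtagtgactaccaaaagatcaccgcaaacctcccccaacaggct

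The 90-base window inside 1 exon with the most differences between the genes had 13, at coding positions 558 to 647. It lies at chr3:144755242-144755331 in Clca3a1 and at chr3:144813965-144814054 in Clca3a2, minus strand. Capitals mark the bases that differ, and a read over them can be assigned.
Clca3a1: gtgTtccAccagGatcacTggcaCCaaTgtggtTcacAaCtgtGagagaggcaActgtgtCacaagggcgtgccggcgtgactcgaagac
Clca3a2: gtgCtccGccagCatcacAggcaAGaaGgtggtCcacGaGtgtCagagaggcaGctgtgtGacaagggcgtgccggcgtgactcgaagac

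Over the longest protein-coding transcript of Clca3a1, 23.6% of all windows of 50 bases and 8.67% of windows of 100 bases also occurred in transcripts of Clca3a2. With all other genes counted, 28.8% of its 50-base windows were found elsewhere, in 107 genes, and 10.8% of its 100-base windows, in 2 genes, so shared sequence was not limited to the pair. Neither the read length nor the treatment of reads that match both genes is stated, so the split of reads within this pair is uncertain. Atp12a lies on the plus strand of chromosome 14 from 56365068 to 56388550, and the annotated antisense gene Gm10873 overlaps it. On either strand, 9.66% of the 50-base windows of Atp12a occurred in 1 other gene, whose name was not recorded. Slc26a4 lies on the minus strand of chromosome 12 from 31519827 to 31559969, with no overlapping gene in GENCODE M21, and 0 of its 3026 windows of 50 bases occurred in another gene. An antisense gene, Gm34866, also overlaps Clca3a1. Strand-specific counting is not stated, and without it reads from stretches shared by a gene and its antisense partner cannot be told apart.

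Clca3a1 was at 1.41, 1.58 and 2.09 FPKM in the knockout libraries, against 0.478, 0.720 and 0.400 FPKM in the control libraries. The lowest knockout library lay 0.688 FPKM above the highest control library. The mean was 1.69 ± 0.36 FPKM in knockout and 0.532 ± 0.17 FPKM in control cells (SD, n = 3 each). On the log2(FPKM + 1) scale, where the change of such a low gene is understated, the difference was 0.81 with SE 0.14 (limma across the 632 genes, adjusted p = 0.00367), and all 3 knockout libraries were above all 3 control libraries. Beside it, 65.3% of all listed genes were called as higher at an adjusted p under 0.05, so a rise is the common outcome in this table. Clca3a1 stayed called without any 1 library (adjusted p = 0.00482 to 0.0159), and its ratio of means lay between 2.80 and 3.86. The call was lost when knockout values were scaled so that the median listed gene did not change (log2 difference 0.30, limma adjusted p = 0.0975). This log2 shift of 0.93 came from a list in which 71.2% of genes had the higher mean. It moves genes away from a higher call. A call lost or a sign turned on this scale, here and below, is therefore no separate evidence against a rise. The call of Clca3a1 was also lost when the adjustment counted every one of the 21951 protein-coding genes of the annotation as tested (limma adjusted p = 0.127). Of 441 listed genes that were higher in knockout with a finite ratio, 109 had a larger ratio than Clca3a1.

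**Figure D1:**
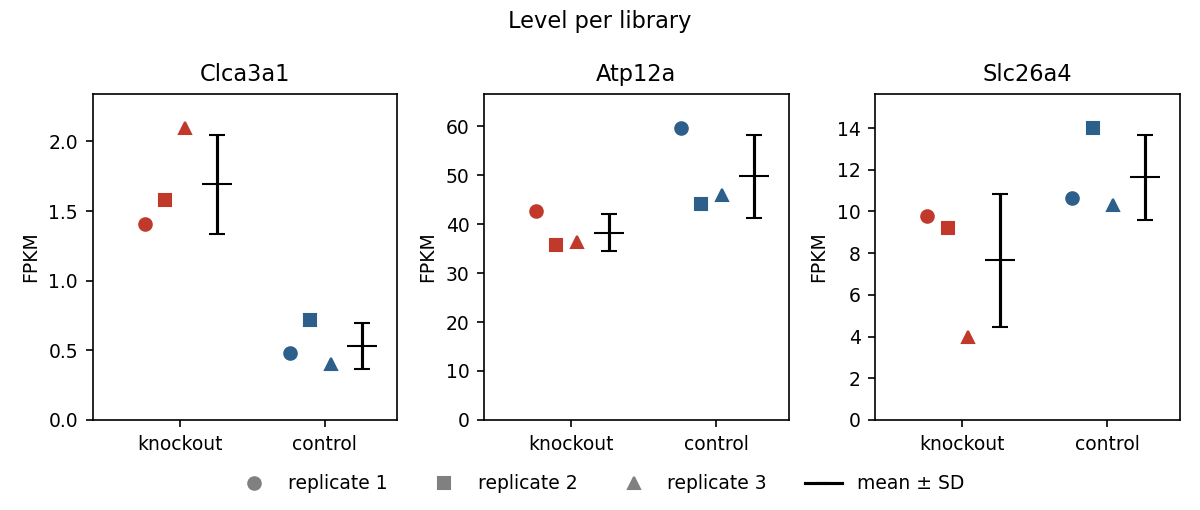
Level of Clca3a1, Atp12a and Slc26a4 in FPKM in each of 3 knockout (red) and 3 control (blue) libraries, with the mean and SD of each group beside the points; each panel has its own axis from 0, and replicate numbers name libraries and pair none of them. The groups do not overlap in any panel, and knockout replicate 3, at 3.99 FPKM, stands below the other libraries for Slc26a4.

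Atp12a was the most abundant of the 3 genes. It was at 42.6, 35.6 and 36.4 FPKM in the knockout libraries, against 59.5, 44.0 and 45.8 FPKM in the control libraries. The groups were separated by 1.42 FPKM, less than either SD, and control replicate 1 was the high one. The mean was 38.2 ± 3.81 FPKM in knockout and 49.8 ± 8.47 FPKM in control cells (SD, n = 3 each), a ratio of 0.768. This difference did not pass (limma log2 difference -0.36, SE 0.16, 95% interval -0.75 to 0.02, adjusted p = 0.0735). Without control replicate 1 the ratio was 0.851, and the adjusted p lay between 0.0525 and 0.190 over all 6 fits that left out 1 library. On both scales on which knockout values were lowered, limma called it. The log2 difference was -0.51 (adjusted p = 0.0255) when 0 was set to the middle of the gap. This gap is the sparse band of ratios between the listed genes with higher and those with lower means. With 0 set to the median listed gene it was -1.26 (adjusted p = 0.00103). Both shifts came from this same list, in which 71.2% of genes had the higher mean. They move genes towards a lower call, so such a call, here and below, is no separate evidence of a fall. By level Atp12a was gene 127 of 632 in knockout and 102 of 632 in control cells.

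Slc26a4 was at 9.80, 9.19 and 3.99 FPKM in the knockout libraries, against 10.7, 14.0 and 10.3 FPKM in the control libraries. Knockout replicate 3 was far below the other 5 libraries, and the highest knockout library lay 0.494 FPKM under the lowest control library. The mean was 7.66 ± 3.20 FPKM in knockout and 11.6 ± 2.03 FPKM in control cells (SD, n = 3 each), a ratio of 0.658. The spread in knockout was 41.7% of the mean, while the median over the listed genes was 11.6% in knockout and 22.5% in control libraries. The difference did not pass (limma log2 difference -0.62, SE 0.32, 95% interval -1.39 to 0.16, adjusted p = 0.115). Without knockout replicate 3 the log2 difference was -0.26 and the ratio 0.816, so much of the difference of means came from 1 library. It was called on the scale centred on the median listed gene (-1.39, adjusted p = 0.0093) and not on the scale centred on the gap (-0.74, adjusted p = 0.0639).

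The 3 separations are common in this table. Groups did not overlap for 82.6% of all listed genes, 66.9% with knockout above and 15.7% with knockout below control, and for 54.4% of the 182 genes with the lower mean in knockout. The exact two-sided permutation test on log2(FPKM + 1) gave p = 0.1 for each of the 3 genes, the smallest value that 3 libraries against 3 can give. Among the 181 lower genes with a finite ratio, 58 had a lower ratio than Slc26a4 and 104 a lower ratio than Atp12a. Only 25.3% of the genes with the lower mean were called, while 91.8% of those with the higher mean were. In FPKM, which is scaled by length, the mean levels had the order Atp12a, Slc26a4, Clca3a1 in both groups, and the libraries of neighbouring genes in that order did not overlap in level.

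Clca3a2, which encodes a second CLCA protein, rose as well. It was at 3.90, 3.22 and 3.79 FPKM in the knockout libraries, against 1.29, 1.36 and 0.343 FPKM in the control libraries. Control replicate 3 was low and the groups did not overlap. It rose 3.64-fold (limma log2 difference 1.26, SE 0.24, adjusted p = 0.00499), and was not called on the scale centred on the median listed gene (0.58, adjusted p = 0.0975) or with adjustment over all protein-coding genes (adjusted p = 0.173). Because reads may be split uncertainly between these genes, their sum was taken in each library. It was 5.30, 4.80 and 5.88 FPKM in the knockout libraries, against 1.77, 2.08 and 0.743 FPKM in the control libraries, with means of 5.33 ± 0.54 FPKM in knockout and 1.53 ± 0.70 FPKM in control cells (SD, n = 3 each). The sum was thus 3.48-fold higher in knockout cells. The ratio of Clca3a2 to Clca3a1 was 2.77, 2.04 and 1.81 in the knockout libraries, against 2.71, 1.89 and 0.859 in the control libraries, and these ranges overlapped.

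**Figure D2:**
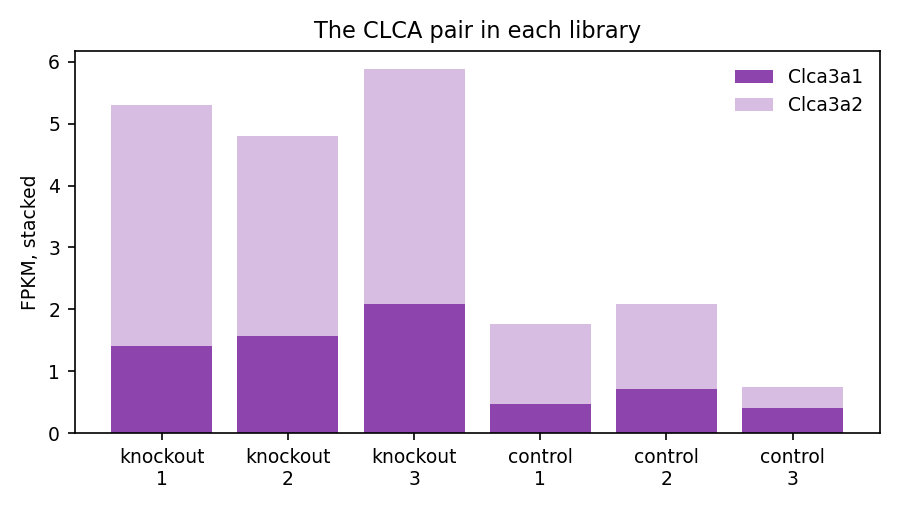
Stacked bars of Clca3a1 (dark) and Clca3a2 (light) in FPKM in each of the 3 knockout and 3 control libraries. The sum lies between 4.80 and 5.88 FPKM in knockout and between 0.743 and 2.08 FPKM in control libraries.

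The 250 bases before the annotated start are shown for Clca3a1, which rose, and for Slc26a4, whose mean was lower (RefSeq, GRCm38.p6, minus strand). They lie at chr3:144760978-144761227 and chr12:31559985-31560234. Capitals mark matches, on either strand, to 5 motifs, none of which overlap here. These were TATAAA, the core promoter box of that name, GGGCGG, bound by Sp factors, CCAAT, bound by NF-Y, the AP-1 site TGACTCA, and the steroid receptor half-site TGTTCT.
Clca3a1: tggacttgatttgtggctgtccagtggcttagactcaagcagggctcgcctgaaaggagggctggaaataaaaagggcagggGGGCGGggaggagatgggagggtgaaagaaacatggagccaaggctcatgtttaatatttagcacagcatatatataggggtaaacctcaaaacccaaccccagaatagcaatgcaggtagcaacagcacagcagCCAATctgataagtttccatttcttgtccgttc
Slc26a4: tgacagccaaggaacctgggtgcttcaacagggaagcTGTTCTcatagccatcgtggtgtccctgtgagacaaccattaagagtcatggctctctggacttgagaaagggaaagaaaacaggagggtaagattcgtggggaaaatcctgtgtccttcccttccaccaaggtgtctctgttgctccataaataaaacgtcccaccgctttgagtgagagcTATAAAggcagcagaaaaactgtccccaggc

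Clca3a1 had 1 GGGCGG, with its first base at position -168 relative to the start, and 1 CCAAT at -33. Slc26a4 had 1 TATAAA at -31 and 1 TGTTCT at -213. Of 32851 RefSeq promoter windows of the same length, 12.4% held TATAAA, 32.7% GGGCGG, 33.8% CCAAT, 4.46% TGACTCA and 16.1% TGTTCT. The matches did not follow direction among other transport genes. Ttyh3, higher in knockout, and Atp6v0e2, whose mean was lower, each held GGGCGG and CCAAT, as Clca3a1 did. Clca3a2, which rose, held none of the 5 motifs. A match is a description of these letters only.

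Of 295 annotated genes on lists of ion and water transport, 14 were in the table, the 3 genes and Clca3a2 included. The lists gave 2 of 7 CLCA genes, 1 of 21 anion transporters of the SLC26 and SLC4 families, 2 of 46 other chloride channels and cotransporters, 3 of 94 potassium channels and 0 of 11 aquaporins. The means of 7 were higher and of 7 lower in knockout, while 71.2% of all listed genes were higher and 28.8% lower. By limma 7 were called as higher and 1 as lower, beside 65.3% and 7.28% of all listed genes. Of all listed genes with the higher mean 91.8% were called, and of those with the lower mean 25.3%. Among the 14, the median fold was 2.01 for genes with higher means and 1.34 for those with lower means. Over all listed genes it was 2.25 and 1.34. The direction went with level: the 7 higher genes all had control means under 10 FPKM, and 6 of the 7 lower genes had 10 FPKM or more. Over the table, 356 of 394 genes under 10 FPKM in control were higher. Of the 238 genes at or above it, 144 were lower and 94 higher, a less complete division than among the 14. The control mean is also the denominator of the ratio.

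**Figure D3:**
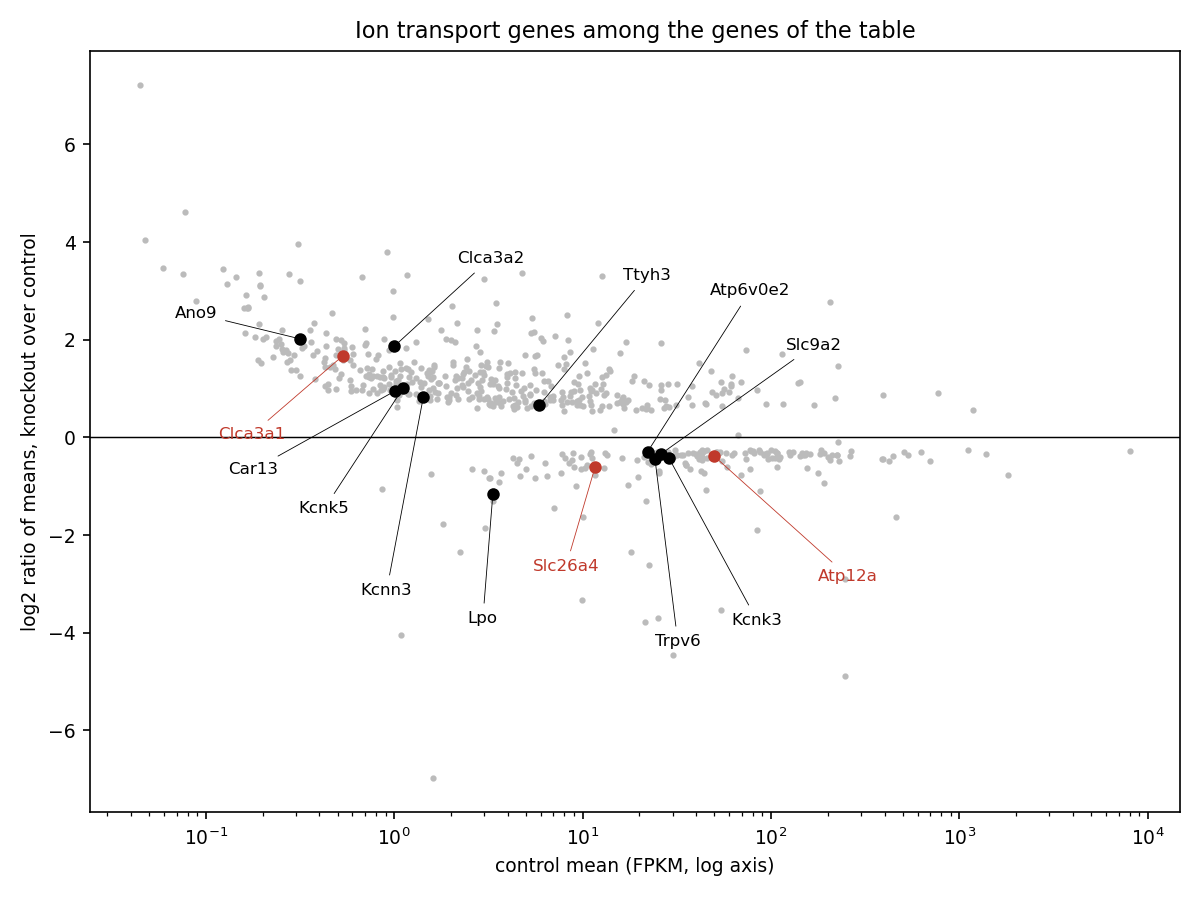
Log2 ratio of group means, knockout over control, against the control mean in FPKM (log axis) for the 622 listed genes with a finite ratio (grey), with the 14 ion transport genes named and Clca3a1, Atp12a and Slc26a4 in red. Few listed genes lie between the band of rises and the band of falls. The lower ion transport genes other than Lpo sit in the band of abundant genes that are lower in knockout. Lpo has a control mean of 3.34 FPKM and a log2 ratio of -1.17.

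Among chloride channel relatives, Ano9, of the TMEM16 family of ion channels and lipid scramblases, was at 0.952, 1.62 and 1.25 FPKM in knockout, against 0.361, 0.328 and 0.255 FPKM in control libraries. The groups were well apart at this low level. It rose 4.05-fold (limma log2 difference 0.78, SE 0.13, adjusted p = 0.00309), and stayed called on the scale centred on the median listed gene (adjusted p = 0.0349), where it was the only called rise among the 14. With adjustment over all protein-coding genes the call of Ano9 was lost (limma adjusted p = 0.107). Ttyh3, a tweety family member described as a chloride channel, averaged 9.34 ± 0.84 FPKM in knockout and 5.90 ± 1.27 FPKM in control cells and rose 1.58-fold (adjusted p = 0.0216, limma). Its sign turned on the scale centred on the median listed gene (-0.21), and without 1 library its call was lost in 4 of 6 fits, those lacking control replicates 1 and 3 and knockout replicates 2 and 3 (adjusted p = 0.0540 to 0.0728).

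Of the 3 potassium channels in the table, 2 rose and 1 did not pass. Kcnk5, an acid-sensitive 2-pore channel of transporting epithelia, was at 2.46, 2.43 and 1.82 FPKM in knockout and at 1.16, 1.14 and 1.03 FPKM in control libraries, a rise of 2.01-fold (limma adjusted p = 0.00644). Its call was lost on the scale centred on the median listed gene (log2 difference 0.037, limma adjusted p = 0.819). With adjustment over all protein-coding genes it was lost as well (limma adjusted p = 0.224). Kcnn3, a calcium-activated channel of small conductance, averaged 2.52 ± 0.20 FPKM in knockout and 1.43 ± 0.40 FPKM in control cells and rose 1.76-fold (limma adjusted p = 0.0165). The call of Kcnn3 was lost without control replicate 1 (adjusted p = 0.0588) or knockout replicate 2 (adjusted p = 0.0547), and its sign turned on the scale centred on the median listed gene (-0.053). Kcnk3, another acid-sensitive 2-pore channel, was at 25.7, 24.3 and 14.1 FPKM in knockout and at 25.4, 33.6 and 27.2 FPKM in control libraries. Its groups overlapped and it did not pass (limma adjusted p = 0.135), but was called as lower on the scale centred on the median listed gene (-1.31, adjusted p = 0.00512).

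Of 3 other genes of proton and bicarbonate handling, 1 rose and 2 did not pass. Car13, a cytosolic carbonic anhydrase, averaged 1.95 ± 0.24 FPKM in knockout and 1.01 ± 0.15 FPKM in control cells and rose 1.93-fold (limma adjusted p = 0.00745). Its call was lost on the scale centred on the median listed gene (log2 difference 0.011, limma adjusted p = 0.9465). With adjustment over all protein-coding genes it was lost as well (limma adjusted p = 0.259). Slc9a2, the sodium-proton exchanger NHE2, averaged 20.5 ± 3.42 FPKM in knockout and 26.0 ± 3.13 FPKM in control cells, with overlapping groups (limma adjusted p = 0.107). Atp6v0e2, a subunit of the membrane sector of the vacuolar proton pump, averaged 18.1 ± 2.15 FPKM in knockout and 22.1 ± 1.22 FPKM in control cells, without overlap (limma adjusted p = 0.0967). Neither of these lower means passed on the values as deposited. On the scale centred on the gap both were called, Slc9a2 at -0.47 (adjusted p = 0.0378) and Atp6v0e2 at -0.42 (adjusted p = 0.0283), and so they were on the scale centred on the median listed gene (adjusted p = 0.0015 and 0.000887).

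Trpv6, an apical calcium channel of absorptive epithelia, was at 18.6, 20.2 and 14.6 FPKM in knockout, against 22.4, 26.0 and 24.1 FPKM in control libraries. The groups did not overlap. It fell to 0.736 of the control mean (limma log2 difference -0.43, SE 0.16, adjusted p = 0.0457), the 1 fall called among the 14, and the call was lost without any 1 of the 6 libraries (adjusted p = 0.0538 to 0.134). Lpo, a peroxidase of exocrine secretions that oxidises thiocyanate and iodide, was at 1.77, 0.874 and 1.82 FPKM in knockout and at 6.49, 3.16 and 0.357 FPKM in control libraries. Its control libraries spanned its knockout libraries (limma adjusted p = 0.430), its ratio of means was 0.847 without control replicate 1 against 0.446 with all libraries, and it was called as lower without control replicate 3 (log2 difference -1.19, adjusted p = 0.0263).

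**Figure D4:**
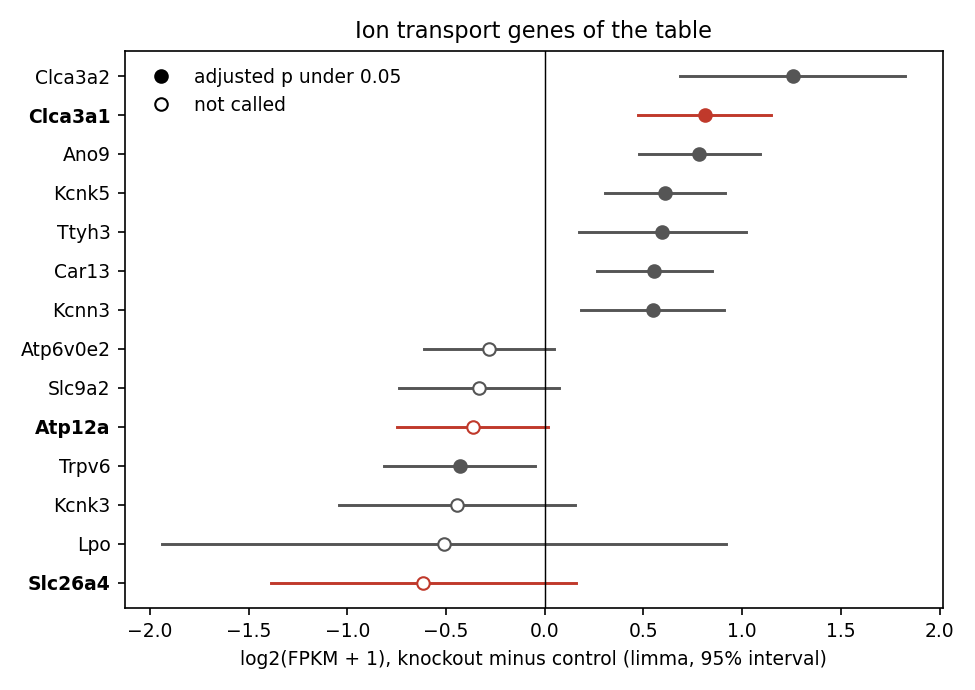
Difference in log2(FPKM + 1), knockout minus control, for the 14 ion transport genes of the table, with 95% intervals from limma; filled points have an adjusted p under 0.05 over the 632 genes and bold names are Clca3a1, Atp12a and Slc26a4. All 7 higher genes are filled, and of the 7 lower ones Trpv6 alone is.

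Knockout replicate 3 was the lowest of the 6 libraries for Slc26a4, Kcnk3, Slc9a2, Trpv6 and Atp6v0e2, 5 of the 7 lower genes. It was also the lowest library for 59.3% of all 182 lower genes of the table. Atp12a differed from these, since its lowest library was knockout replicate 2 and its highest control replicate 1. In log2(FPKM + 1) relative to the control mean, knockout replicate 3 stood at -1.33 for Slc26a4 and -0.97 for Kcnk3, and knockout replicates 1 and 2 at -0.22 and -0.30 for Slc26a4 and at -0.14 and -0.22 for Kcnk3. Control replicate 2 was the highest library for Slc26a4, Kcnk3, Slc9a2 and Trpv6, 4 of the 7, as it was for 13.7% of the lower genes of the table. At the other end, control replicate 3 was the lowest library for all 7 higher genes, Clca3a1 included, and for 61.3% of the higher genes of the table.

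**Figure D5:**
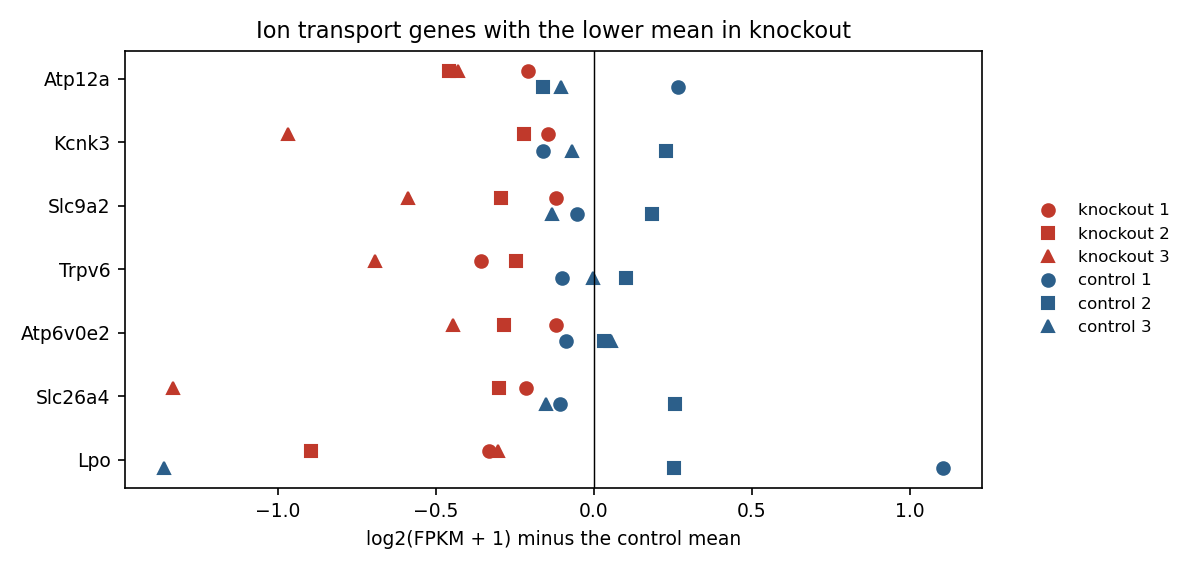
Value of the 7 ion transport genes with the lower mean in knockout, as log2(FPKM + 1) minus the control mean, in knockout (red, upper points of each row) and control (blue, lower points) libraries; shapes give replicate numbers, which pair no libraries. Knockout replicate 3 is leftmost for Kcnk3, Slc9a2, Trpv6, Atp6v0e2 and Slc26a4 and not for Atp12a or Lpo.

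The genes of the table whose profile over the 6 libraries lay closest to each gene were found by the root mean square difference in log2(FPKM + 1) minus the control mean, over 610 other listed genes with a given name. For Clca3a1 they were Unc13d, a factor of granule exocytosis, H2-DMa, a chaperone of class II antigen presentation, and Cxadr, a junctional adhesion molecule, at 0.035, 0.042 and 0.050, against a median of 0.287 over those genes. This scale understates the change of a low gene such as Clca3a1, so closeness on it does not mean an equal fold. H2-DMa rose 1.85-fold from a control mean of 5.26 FPKM and Cxadr 1.97-fold from 3.92 FPKM, against 3.18-fold for Clca3a1. Unc13d had a similar level too, at 1.38, 1.53 and 1.84 FPKM in knockout and at 0.427, 0.671 and 0.369 FPKM in control libraries, and it rose 3.24-fold (limma adjusted p = 0.00269), a call lost on the scale centred on the median listed gene (adjusted p = 0.0728). For Atp12a they were the fatty acid enzymes Acsl3 and Hacd2 and the MARVEL domain gene Cmtm8, at 0.064, 0.074 and 0.076 against a median of 0.783. Like Atp12a, these genes were highest in control replicate 1, as were 62.6% of the lower genes of the table, and Hacd2 alone of the 3 was called as lower (limma adjusted p = 0.0348). That call was lost in 4 of 6 fits without 1 library, those lacking control replicate 1 and each of the knockout replicates (adjusted p = 0.0539 to 0.106), and the other 2 genes were called on the scale centred on the gap (adjusted p = 0.0225 for Acsl3 and 0.0352 for Cmtm8). For Slc26a4 they were the histone deacetylase gene Hdac9, the carbonyl reductase gene Cbr2 and the receptor gene Gpr83, at 0.124, 0.150 and 0.158 against a median of 1.002. All of these were lowest in knockout replicate 3, as Cbr2 shows with 358, 338 and 160 FPKM in knockout and 379, 384 and 393 FPKM in control libraries, and limma called none of the 3. Without knockout replicate 1 Gpr83 was called as lower (adjusted p = 0.0352), and on the scale centred on the median listed gene all 3 were (adjusted p = 0.00399 to 0.0107).

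Markers of several cell types also differed between the groups, in a table in which 65.3% of all genes, and 91.8% of those with the higher mean, were called as higher. All 5 listed basal markers were called as higher in knockout, and they summed to 168 to 202 FPKM in knockout and 85.4 to 115 FPKM in control libraries. All 5 listed proximal luminal markers of 6 were called as higher, with sums of 302 to 386 FPKM in knockout and 84.3 to 134 FPKM in control libraries. So were all 6 listed leukocyte markers of 8, with sums of 138 to 152 FPKM in knockout and 69.0 to 80.4 FPKM in control libraries. All 3 listed fibroblast markers of 6 were as well, with 89.3 to 94.2 FPKM in knockout and 50.8 to 70.5 FPKM in control libraries. Azgp1 was the 1 listed gene of 7 prostate secretory markers and was called as lower, at 285 to 300 FPKM in knockout and 339 to 461 FPKM in control libraries. Upk1a was the 1 listed urothelial marker of 5, at 68.3 to 95.6 FPKM in knockout and 90.1 to 120 FPKM in control libraries, and was not called. No listed marker was at 0 in any library, and 0 were in the table of 6 ionocyte and intercalated cell, 7 seminal vesicle, 7 goblet and secretory mucosa, 4 neuroendocrine, 5 smooth muscle and 4 endothelial markers. Leukocyte and fibroblast markers were thus present in both groups, so the RNA was not of epithelial cells alone. Which cells expressed Clca3a1, Atp12a and Slc26a4 is not known. The part of these marker differences in the values of the 3 genes was not tested. In bulk RNA fewer cells of a type and less RNA per cell cannot be told apart.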

How the data were processed

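Bulk values of 3 knockout and 3 control libraries were analysed. The deposited values, made by the authors, were treated as FPKM. The file header names no unit, and FPKM rests on the submitters' processing notes, which name TopHat2 2.0.14, Cufflinks 2.2.1, Cuffdiff and the build GRCm38 with no role or order. The labels name both a bulk RNA kit (NEBNext Ultra) and a droplet single-cell 3' kit. Which one applies could not be settled, and with 3' reads scaling by length would distort levels between genes. The deposited group means match the library means to a relative 4.95e-06.

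Differences in log2(FPKM + 1) were tested over all 632 genes with limma 3.58.1 in R 4.3.3, its prior variance following the mean level, with no filter on low values and Benjamini-Hochberg adjustment (threshold 0.05). The fit was also run on simulated data in which some genes were raised and spreads were shuffled across genes. Those settings differ from this list, so that run does not test the calls made here. A fold change is the quotient of the group means, without a pseudocount. All 632 identifiers matched GENCODE M21. Overlapping windows came from its transcripts, coding identity from a global alignment with Biopython 1.88, and promoters from RefSeq, which gave 9 of the 14 list genes. Named genes were the 3 genes, every listed gene of the transport lists and the 3 nearest profiles of each. The genes and lists were chosen with earlier results of these data known. Alternatives covered the pseudocount, a minimum of 1 FPKM, scaling, the prior, the adjustment, the threshold and each library in turn; scaling on the gap and counts over the lists were added after the values were seen.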

Additional observations from a re-analysis of the deposited data

How the results depend on the processing

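The direction of Clca3a1, Atp12a and Slc26a4 held under every alternative run. Without 1 library each, the log2 differences ranged from 0.71 to 0.90 for Clca3a1, from -0.45 to -0.23 for Atp12a and from -0.81 to -0.26 for Slc26a4. Centred on the median listed gene (a log2 shift of 0.93), Clca3a1 was at 0.30 and lost its call, Atp12a at -1.26 and Slc26a4 at -1.39 became called, 71 listed genes were higher and 163 lower, and of the 14 transport genes 1 was higher and 6 were lower. There Ttyh3 (-0.21), Kcnn3 (-0.053), H2-DMa (-0.039) and Slc25a24 (-0.18) changed sign. As deposited, 413 were higher and 46 lower. Centred on the gap (a shift of 0.15), Atp12a at -0.51 became called, 390 listed genes were higher and 119 lower, and 4 transport genes were lower. Adjusted over all protein-coding genes, Clca3a1 (0.81) lost its call, 23 listed genes were higher and 1 lower, and of the transport genes 0 were higher and 0 lower by limma (7 and 1 at an unadjusted p under 0.05). At a threshold of 0.01, 8 listed and 0 transport genes were lower. Without 1 library each, 365 to 410 listed genes were higher and 20 to 79 lower, and of the transport genes 5 to 7 were higher and 0 to 1 lower. The causes were not tested. Lpo (-1.19 to 0.042) and Slc7a11 (-0.49 to 0.20) changed sign without control replicate 1. No paired analysis was run, because the titles share no replicate numbers between groups and the labels used here do not say which mice shared a litter. A pairing of knockout and control littermates, if there was one, was therefore not modelled. Depth is unknown, which limits what can be said of genes near 1 FPKM.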

Other observations

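Other carriers and chloride channels of the table, chosen after their values were seen as all remaining genes named Slc or Gabr, were 7 in number. Gabrp, the pi subunit of the GABA-A receptor chloride channel, found in epithelia, was at 3.86, 2.87 and 4.34 FPKM in knockout, against 2.16, 2.15 and 0.828 FPKM in control libraries. The groups did not overlap, and it rose 2.15-fold (limma adjusted p = 0.0264), a call lost without knockout replicate 1 (adjusted p = 0.0695) or 3 (adjusted p = 0.0771). Slc34a2, a sodium-phosphate cotransporter, rose 2.05-fold to 1.82 ± 0.45 FPKM in knockout cells, against 0.885 ± 0.40 FPKM in control cells (limma adjusted p = 0.0310, SD, n = 3 each). In 4 of 6 fits without 1 library, those lacking control replicates 2 and 3 and knockout replicates 1 and 2, its call was lost (adjusted p = 0.0594 to 0.0868). On the scale centred on the median listed gene neither rise was called (log2 difference 0.15 and adjusted p = 0.683 for Gabrp, 0.066 and 0.804 for Slc34a2). Slc25a24, a mitochondrial ATP-magnesium and phosphate carrier, rose 1.61-fold (limma adjusted p = 0.0134), a call that leaving out knockout replicate 2 ended (adjusted p = 0.0503), and its sign turned on that scale (-0.18).

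The peptide transporter gene Slc15a2 was at 12.0, 11.9 and 23.3 FPKM in knockout, against 31.8, 21.0 and 23.6 FPKM in control libraries. Knockout replicate 3 lay within the range of the control libraries, and the difference did not pass (limma adjusted p = 0.0648). Without that library Slc15a2 was called as lower (log2 difference -1.01, adjusted p = 0.0139), as it was on the scales centred on the gap (adjusted p = 0.0343) and on the median listed gene (adjusted p = 0.00504). For Slc26a4 it was knockout replicate 3 that lay far from the control libraries, and for Slc15a2 the other 2 knockout libraries did. The amino acid transporter genes Slc3a2 and Slc7a11 were highest in control replicate 1 and did not pass (limma adjusted p = 0.245 and 0.529), nor did the mitochondrial carrier gene Slc25a28 (limma adjusted p = 0.0683). Slc25a28 was called as lower without control replicate 2 (adjusted p = 0.0284) and on the scale centred on the gap (adjusted p = 0.0177), and on the scale centred on the median listed gene both Slc25a28 and Slc3a2 were (adjusted p = 0.000887 and 0.00492).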
